A study of Rattus norvegicus with 15 samples.

Results

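The transcripts described here are the genes whose reads were at least 2-fold more frequent in rat cortical astrocytes after H2O2 than in control astrocytes. Expression was taken as CPM, a gene's reads per 1000000 counted reads of its library, which is not divided by gene length. A gene was a member when its mean CPM after H2O2 was at least 1, its log2 ratio of the H2O2 mean to the control mean (0.5 CPM added to both) was at least 1, and its lowest H2O2 value lay above its highest control value. Of 32552 listed genes, 13265 reached the level and 118 met all of these conditions. From these, 15 genes were left out because the 6 values with unmodified mitochondria and with MitoCoat lay all above (13 genes) or all below (2 genes) the 6 values of H2O2 alone and MitoCoat–mRNA, which left 103 members. Of all genes at that level, 4.46% lay all above and 2.59% all below. The members were thus chosen by their CPM values after H2O2 and in control, which are given as a description, and the values of all 4 H2O2 groups decided which of the 118 stayed.

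Hydrogen peroxide crosses membranes and oxidises protein thiols, and cells answer with transcription driven by Nrf2 (antioxidant and glutathione genes), p53 (cell cycle arrest and DNA repair genes) and NF-κB or AP-1 (cytokine and immediate early genes). Astrocytes hold large glutathione stores and supply its precursors to neurons, which makes them the main peroxide buffer of brain tissue. Much of such a response is short-lived in culture, and the treated samples here were taken more than a day after the exposure.

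The study asked whether placental mitochondria, or the RNA associated with them, help stressed astrocytes. The astrocytes came from cortices of newborn Sprague Dawley rats, and the RNA formed 5 groups of 3 samples. Vehicle was given to the control wells and 100 µM H2O2 to all others for 30 min. Of the 4 stressed groups, the H2O2 group was left without treatment. The others were given, 24 h later, unmodified mitochondria from cryopreserved rat placenta, the same kind of mitochondria coated with DOTAP and DOPE lipids (MitoCoat), or mitochondria-associated RNA encapsulated in these lipids without the organelle (MitoCoat–mRNA). RNA was collected 6 h after treatment, and the labels give no collection time for the H2O2 and control samples. No group analysed here received lipids alone, mitochondria without H2O2 or the RNA without H2O2. The sample titles name primary rat astrocytes, and the paper describes astrocyte RNA. Other text of the labels speaks of RNA from mitochondria-enriched fractions, and astrocyte RNA was assumed here. The paper calls the 3 samples of a group biological replicates, and the labels do not say whether they were separate cultures. In bulk RNA, more cells of a type and more RNA per cell cannot be told apart. The genes are listed by Ensembl identifiers that no table used here pairs with gene names. Members are therefore given by their position on the Rnor6.0 assembly, 4 of them also by identifier, and neither their functions nor the markers of astrocytes and of other cell types were analysed here.

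Each library held 35315654 to 46778663 counted reads. Every member had at least 26 reads in each H2O2 sample (median over members of the lowest such count 252, highest 90773), and all 103 passed the filter on low counts in every comparison.

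The rise after H2O2 was moderate for most members. The log2 ratio to control, with 0.5 CPM added to both means, ranged from 1.00 to 3.34 with a median of 1.30. On that scale the median fold was 2.46 and the largest 10.1. The added 0.5 CPM lowers the fold of genes with few reads. In the edgeR fit of H2O2 against control, the median log2 fold change of the members was 1.55 and the largest 3.93. The ratio with 0.5 CPM added was at least 1.5 for 27 members, at least 2 for 9 and at least 3 for 1, and it lay under 1.1 for 22. The members nearest above the threshold were chr4:158224000-158576978, chr8:62472095-62478147 and chr1:217754336-217902473, with ratios of 1.0023, 1.005 and 1.0071. The genes nearest below it that met the other conditions were chr2:46538700-46544457, chr7:65159944-65275408 and chr10:47490153-47499876, with ratios of 0.996, 0.999 and 0.999. A small change in the values would exchange these genes. In the fits across all genes, 91 of the 103 members were higher after H2O2 than in control at an adjusted p under 0.05 (edgeR quasi-likelihood test, Benjamini-Hochberg). The same call was made for 2.97% of the 15650 genes tested and the opposite one for 4.22%, and nothing is read from this count because the contrast chose the members.

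**Figure D1:**
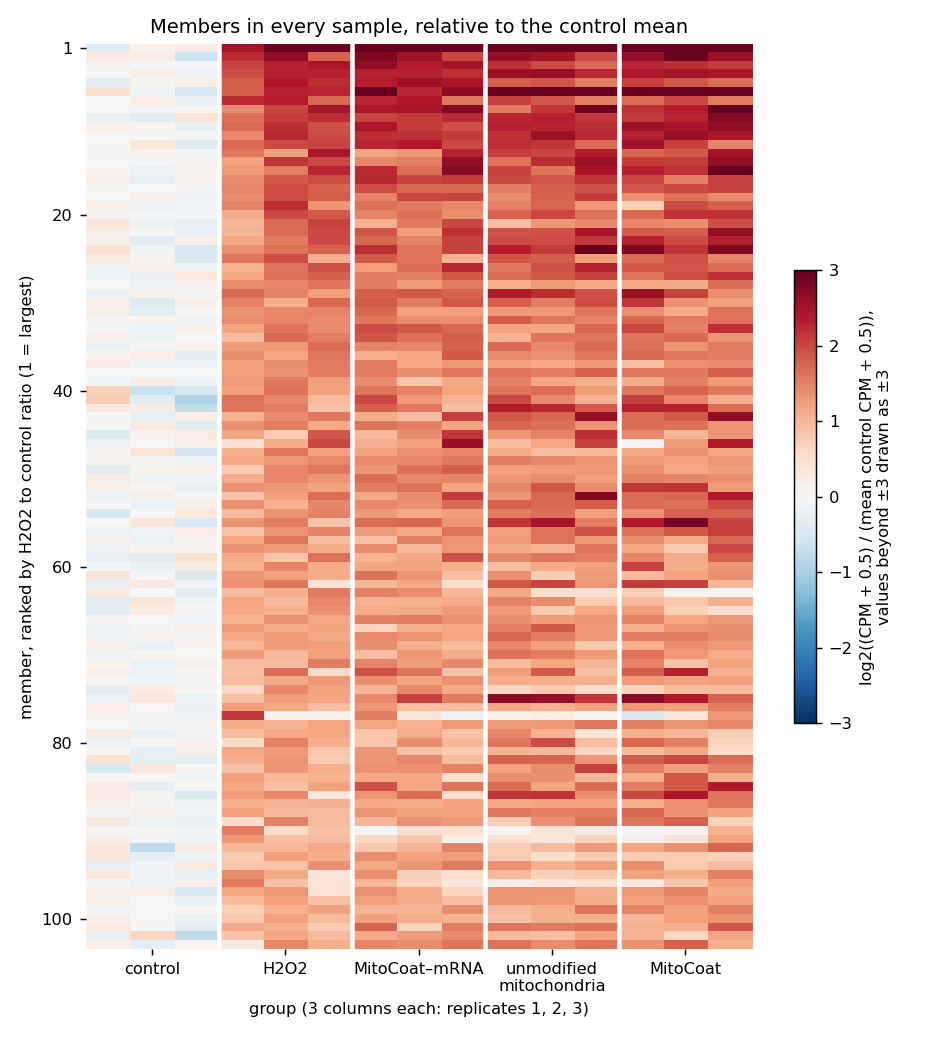
The 103 members (rows, ranked by the H2O2 to control ratio) in the 15 samples (columns, 3 replicates per group); colour gives the log2 ratio of each sample's CPM to the control mean with 0.5 CPM added, on a scale cut at −3 and 3. Most rows stay red in the 3 treated groups, 5 members kept less than 0.5 of the rise after at least 1 treatment, and median ratios to control are 1.30 after H2O2, 1.46 with MitoCoat–mRNA, 1.53 with unmodified mitochondria and 1.54 with MitoCoat.

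The gene with the largest ratio was chr4:61771970-61828657, a gene of 20 exon blocks. Its CPM was 1.02, 1.65 and 1.82 in the control samples and 10.7, 18.0 and 30.4 in the H2O2 samples. These groups lay far apart. The gene had 19, 15.5 and 35.5 CPM with MitoCoat–mRNA, 21.2, 28.1 and 58.8 CPM with unmodified mitochondria and 23, 29.9 and 61.5 CPM with MitoCoat, so that replicate 3 was the highest in each of the 5 groups and the 4 groups given H2O2 overlapped. Unmodified mitochondria differed from H2O2 by a log2 fold change of 0.82 (edgeR, adjusted p = 0.418) and from MitoCoat–mRNA by 0.59 (adjusted p = 0.576), and with the replicate number as a block the adjusted p-values were 1.8e-05 and 0.0124. MitoCoat differed from H2O2 by 0.89 (edgeR, adjusted p = 0.344). The 3 next largest ratios were 2.27 for chr14:91557601-91613540, 2.26 for chr3:120272583-120306551 and 2.21 for chr3:176657107-176666282. Ratios of 2.17, 2.16, 2.13, 2.04, 2.00 and 1.96 followed for chr13:52705174-52752997, chr10:69423086-69424979, chr10:40496622-40525008, chr14:34354503-34381828, chr12:22677607-22680630 and chr5:76110738-76129441. In control, these 10 genes ranged from 0.563 CPM for chr14:34354503-34381828 to 79.3 CPM for chr12:22677607-22680630, and none of the 5 members with the most reads was among them.

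By reads, the group was dominated by a few genes. The 5 members with the most reads held 56.7% of the summed H2O2 CPM of all 103, while 14 members had 1 to 2 CPM, 43 had 2 to 10, 26 had 10 to 100 and 20 had 100 or more. The gene with the most reads, chr19:38422164-38437180, had 1003 ± 222 CPM in control (SD, n = 3) and 2580.3 ± 358 CPM after H2O2 (SD, n = 3). It was followed by chr1:218090750-218100325, with 629 ± 90.4 CPM in control and 1554 ± 182 CPM after H2O2 (SD, n = 3 each). The next were chr5:17056419-17061837, which overlaps another listed gene of its own strand, chr14:87457647-87465374 and chr1:219291679-219294147, with 1175, 980 and 903 CPM after H2O2. Summed over all members, their reads were 0.449 to 0.521% of a control library and 1.19 to 1.37% of an H2O2 library. The sum was 1.33 to 1.5% with MitoCoat–mRNA, 1.42 to 1.53% with unmodified mitochondria and 1.5 to 1.54% with MitoCoat. No treated library came near the control range by this measure, which the genes with the most reads decide.

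Members varied more between replicates than all genes with a mean CPM of at least 1, in a comparison not matched for level. Their median level was 2.84 CPM in control and 8.98 CPM after H2O2, and the part of level in this difference was not tested. The median coefficient of variation within a group was 20.1% in control and 20.2% after H2O2, against 9.58% and 11.4% over all genes with a mean CPM of at least 1. After H2O2, replicate 1 was the lowest of the 3 samples for 59 members, 57.3% of them, and for 28.9% of all genes at that level. This library enters every comparison with H2O2, and the median fold changes against H2O2 are therefore also given without it. At chr15:27738972-27739269, a gene of 1 exon block overlapped on the opposite strand, membership rested on this replicate, with 14.4 CPM against 3.16 and 3.19 in the other two and at most 3.15 in control.

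The members were spread over 20 chromosomes. Chromosome 1 held 14 of them (13.6%, against 12.4% of all genes at that level), chromosomes 3 and 5 held 10 each and chromosome 2 held 9. Their summed exonic length had a median of 2006 bases, against 2401 over all genes at that level, and the median number of exon blocks was 7 against 9. The 5 members with a single exon block were 4.85%, close to 4.84% of all genes. Another listed gene overlapped 14 members, 9 of them on the opposite strand, and reads of such pairs could be split wrongly because the sources call the counting strand-specific only where applicable.

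Members often lay close to each other. Another member was found within 100000 bases of 16 members (15.5%), whereas a member lay that close to 318 of the 13162 other genes at that level (2.42%). The 16 formed 8 pairs, of which the closest were 2421 bases apart on chromosome 5, 8901 bases on chromosome 4, 9216 bases on chromosome 10 and 50736 bases on chromosome 15. Neighbouring genes of similar sequence can share reads, which unique mapping reduces, and sequence similarity was not analysed here. The gene with the largest ratio, at chr4:61771970-61828657, was itself in a pair, 51014 bases from chr4:61706864-61720956. That neighbour lies on the opposite strand and had 154, 155 and 156 CPM in control and 365, 399 and 451 CPM after H2O2, a log2 ratio of 1.38 against 3.34 for its partner.

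**Figure D2:**
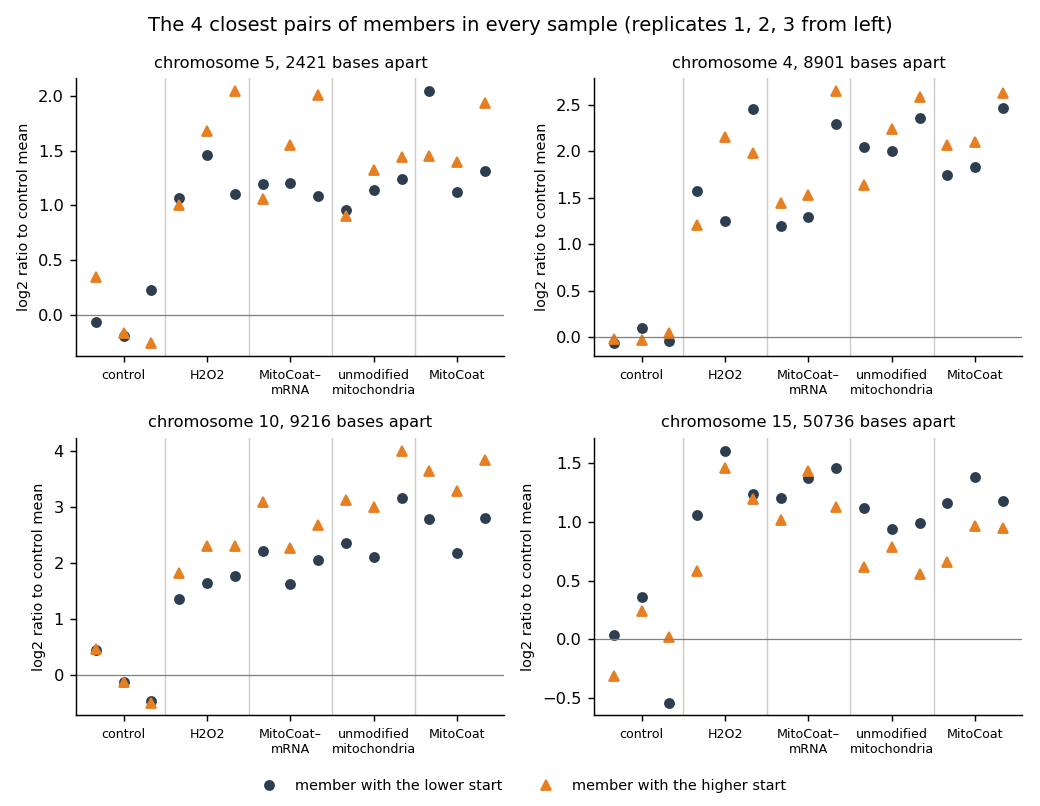
Log2 ratio to the control mean (0.5 CPM added) in each of the 15 samples for both genes of the 4 closest pairs of members, circles for the gene with the lower start and triangles for the other. On chromosome 10 both genes are higher in the samples with mitochondria than after H2O2 alone, and on chromosome 15 both have a lower mean ratio with unmodified mitochondria (1.02 and 0.66) than with MitoCoat–mRNA (1.35 and 1.20).

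In none of the 3 treated groups did the median of the members return to the control level. This median over members, computed in each sample, was 1.21 to 1.39 on the log2 scale relative to control after H2O2, 1.38 to 1.44 with MitoCoat–mRNA, 1.47 to 1.54 with unmodified mitochondria and 1.52 to 1.58 with MitoCoat. The medians with mitochondria, coated or not, lay above those of both other H2O2 groups in every sample, while MitoCoat–mRNA and H2O2 overlapped. As means over samples they were 1.31 ± 0.092 after H2O2, 1.42 ± 0.031 with MitoCoat–mRNA, 1.51 ± 0.037 with unmodified mitochondria and 1.54 ± 0.034 with MitoCoat (SD, n = 3 each). The medians of all genes at that level stayed between −0.042 and 0.074 in these 12 samples. The H2O2 and control samples chose the members, and the last condition used the treated samples, so these medians are a description only.

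**Figure D3:**
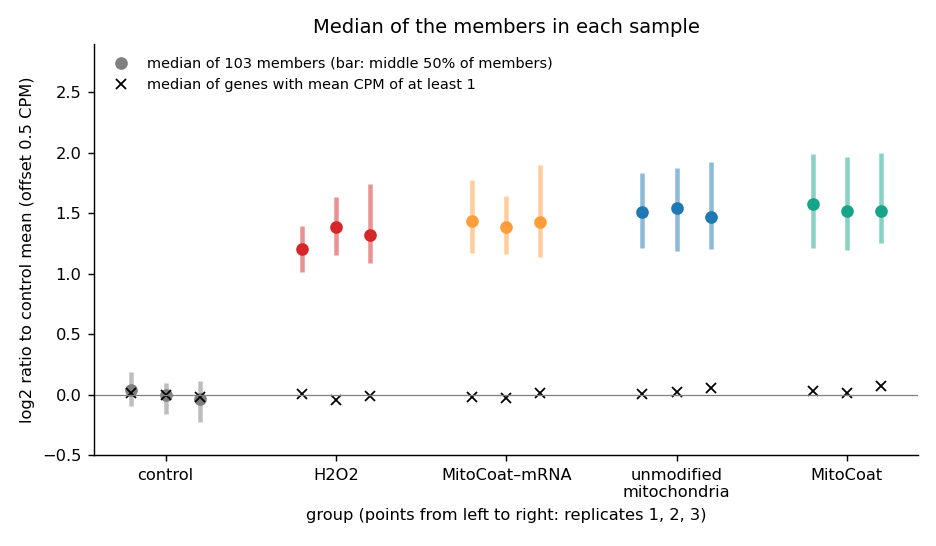
Median log2 ratio to the control mean over the 103 members in each sample (circles, with bars for the middle 50% of members) and over all genes with a mean CPM of at least 1 (crosses). Member medians are 1.21 to 1.39 after H2O2 and 1.47 to 1.58 in the 6 samples with mitochondria.

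Each member's course was also expressed as the share of its H2O2 rise that was kept, the log2 ratio to control after treatment divided by that after H2O2. The median share was 1.09 with MitoCoat–mRNA, 1.13 with unmodified mitochondria and 1.17 with MitoCoat, and shares over 1 were found for 75, 75 and 76 members. With the MitoCoat–mRNA level in place of the H2O2 level, the median share was 1.05 for unmodified mitochondria and 1.12 for MitoCoat. The values remained above the highest control value in all 3 samples for 100 members with MitoCoat–mRNA, 101 with unmodified mitochondria and 97 with MitoCoat. Among all genes at that level, 17.8%, 23.8% and 25.8% did so. These comparisons use the control samples that chose the members. A mean above both the H2O2 and the MitoCoat–mRNA mean was seen for 58 members with unmodified mitochondria and 63 with MitoCoat (52 with both), and a mean below both for 26 and 21 (15 with both).

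Only 5 members kept less than 0.5 of the rise after any treatment, and 1 did so after all 3. That gene, chr4:72751382-72756887, had 0.214 to 0.305 CPM in control and 1.76, 0.637 and 0.918 CPM in the H2O2 samples. Unmodified mitochondria gave 0.311, 0.514 and 0.429 CPM, MitoCoat gave 0.234, 0.296 and 1.1 CPM, and MitoCoat–mRNA gave 0.247, 0.584 and 0.588 CPM. With unmodified mitochondria and MitoCoat–mRNA all samples lay under the lowest H2O2 sample, with MitoCoat they overlapped the H2O2 range, and no comparison with H2O2 passed the test (edgeR, adjusted p = 0.175 for unmodified mitochondria, 0.506 for MitoCoat and 1.00 for MitoCoat–mRNA). The other 4 were chr1:56159426-56168351 (share 0.284 with MitoCoat and 1.09 with MitoCoat–mRNA), chr5:155914735-155916893 (0.314 with unmodified mitochondria), chr5:165312130-165316652 (0.485) and chr15:27738972-27739269 (0.109). Of these, chr1:56159426-56168351 had the largest difference between MitoCoat and MitoCoat–mRNA of all members, with 1.61, 0.863 and 0.836 CPM against 3.08, 2.9 and 2.03. The groups did not overlap, the log2 fold change was −1.32 and the adjusted p was 0.0964 (edgeR). All 5 genes belonged to the members with fewer reads, under 8.56 CPM over all samples.

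No member passed the test between MitoCoat–mRNA and H2O2 alone. Of the 103, 0 were called in either direction (edgeR), as were 0% of the 15506 genes tested, and 0 were called by DESeq2. An unadjusted p under 0.05 was found for 7 members, 6 higher and 1 lower (6.80%, against 2.99% of all genes). The values did not overlap with those of H2O2 for 7 members above and 2 below, where 4.45% and 4.42% of all genes did so. The median log2 fold change was 0.134 over members and −0.003 over all genes, with 75 members on the positive side (72.8%, against 49.2% of all genes). Without H2O2 replicate 1 the median was 0.051. The 95% interval lay within a 2-fold change in both directions for 80 of the 103 members, where 78.9% of all genes had such an interval.

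Unmodified mitochondria against H2O2 raised 3 members and lowered 0 (edgeR, adjusted p under 0.05), shares of 2.91% and 0% where 1.86% and 1.73% of all genes were called. Unadjusted, 22 members had a p under 0.05, 15 higher and 7 lower (21.4%, against 13.8% of all genes). The values did not overlap with those of H2O2 for 18 members above and 3 below (background 13.3% and 7.62%). The median log2 fold change was 0.158 over members and −0.011 over all genes, and it was 0.061 without H2O2 replicate 1. Same-numbered samples of these groups deviated together, and with the replicate number as a block 13 members were called higher and 4 lower, where 4.12% and 3.84% of all genes were called in that fit. MitoCoat against H2O2 raised 4 members and lowered 0, where 1.47% and 1.58% of all genes were called. Unadjusted, 20 members were higher and 1 lower at p under 0.05 (20.4%, against 14.9% of all genes). The values did not overlap for 22 members above and 2 below (background 15.7% and 7.95%). Its median log2 fold change was 0.194 over members and 0.002 over all genes, and 0.143 without H2O2 replicate 1. Before the last condition removed 15 genes, 10 of the 118 were higher and 2 lower with unmodified mitochondria, and 11 higher and 2 lower with MitoCoat. Values without overlap were found for 31 above and 5 below with unmodified mitochondria and for 35 above and 4 below with MitoCoat. The last condition took out 9 of the 12 calls with unmodified mitochondria and 9 of the 13 with MitoCoat, and the counts among members describe only what it left. Both comparisons use the H2O2 samples that chose the members.

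The gene ENSRNOG00000000239 (chr10:69423086-69424979, plus strand, 3 exon blocks) was called higher with both kinds of mitochondria. Its CPM was 37.1, 24.7 and 18.9 in control, 96.5, 135 and 133 after H2O2, and 231, 131 and 175 with MitoCoat–mRNA. It was 238, 219 and 438 with unmodified mitochondria and 342, 265 and 389 with MitoCoat. All 6 samples with mitochondria lay above the H2O2 samples, and all MitoCoat samples lay above all MitoCoat–mRNA samples, while unmodified mitochondria and MitoCoat–mRNA overlapped. Within each replicate number, unmodified mitochondria lay above MitoCoat–mRNA, by a log2 fold change of 0.67 in the blocked fit (edgeR, adjusted p = 0.0214, and 0.227 without the block). The log2 fold change against H2O2 was 1.24 ± 0.242 (SE) with unmodified mitochondria (edgeR, adjusted p = 0.0196) and 1.39 ± 0.169 (SE) with MitoCoat (edgeR, adjusted p = 0.0031). The first call was lost without H2O2 replicate 1 (adjusted p = 0.0656) or replicate 3 (0.0571), and the second held without any 1 sample.

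Its neighbour on the same strand, chr10:69412017-69413870, took a like course. It had 93.3, 62.1 and 49.1 CPM in control, 176, 212 and 234 after H2O2 and 317, 210 and 282 with MitoCoat–mRNA. With unmodified mitochondria it had 349, 294 and 612 CPM, and MitoCoat gave 471, 308 and 478 CPM, all above the H2O2 samples. It was called with MitoCoat against H2O2 (log2 fold change 0.96 ± 0.172 SE, edgeR adjusted p = 0.0167) but not with unmodified mitochondria (0.96 ± 0.232 SE, adjusted p = 0.0534), where the blocked fit gave 6.1e-06. The MitoCoat call was lost without H2O2 replicate 1 (adjusted p = 0.0731), MitoCoat replicate 1 (0.055) or MitoCoat replicate 3 (0.0654). Both groups with mitochondria overlapped the MitoCoat–mRNA samples. Against these, the log2 fold change was 0.59 with unmodified mitochondria (edgeR, adjusted p = 0.276, and 0.0214 with the block). With MitoCoat it was 0.58 (adjusted p = 0.148, and 0.0135 with the block).

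ENSRNOG00000031167 (chr3:147609095-147632801, plus strand, 7 exon blocks) was the other gene called with both. Its CPM was 13.9, 20.5 and 14.0 in control and 30.2, 39.5 and 37.4 after H2O2, a ratio just above the threshold. It was 108, 103 and 71.5 with unmodified mitochondria, 109, 85.9 and 56.3 with MitoCoat, and 44.6, 69.9 and 48.3 with MitoCoat–mRNA. The share of the H2O2 rise was 2.24 with unmodified mitochondria, the largest of all members, 2.09 with MitoCoat and 1.53 with MitoCoat–mRNA. Against H2O2, its log2 fold change was 1.35 ± 0.174 (SE) with unmodified mitochondria (edgeR, adjusted p = 0.0023), a call that held without any 1 sample. With MitoCoat it was 1.18 ± 0.225 (SE; edgeR, adjusted p = 0.0217), and leaving out H2O2 replicate 1 or 3 or MitoCoat replicate 1 or 2 gave adjusted p-values of 0.102, 0.0844, 0.0513 and 0.0835. All samples with unmodified mitochondria lay above those with MitoCoat–mRNA, by a log2 fold change of 0.76 (edgeR, adjusted p = 0.0681, and 0.0012 with the block). MitoCoat and MitoCoat–mRNA overlapped.

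Against H2O2, 2 further members were called. With MitoCoat, chr14:18521930-18531179 had 10.8, 15 and 8.31 CPM against 4.98, 5.76 and 3.41, a log2 fold change of 1.22 (edgeR, adjusted p = 0.0443) that was lost in 4 of the 6 fits without 1 sample (H2O2 replicate 1 or 3, MitoCoat replicate 1 or 2, adjusted p of 0.0842 to 0.188). With unmodified mitochondria, chr6:108087418-108120579 had 124, 116 and 119 CPM against 97.0, 81.1 and 78.6, a log2 fold change of 0.44 (edgeR, adjusted p = 0.0369). It overlaps 2 listed genes on the opposite strand, and the call was lost in 5 of the 6 fits without 1 sample, all but the one without H2O2 replicate 1 (adjusted p of 0.0725 to 0.170). Against MitoCoat–mRNA, neither gene was called without the replicate block. MitoCoat gave 0.87 for the gene on chromosome 14 (edgeR, adjusted p = 0.0971, and 0.0374 with the block). Unmodified mitochondria gave 0.26 for the gene on chromosome 6 (adjusted p = 0.119, and 0.0451 with the block).

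MitoCoat–mRNA samples took no part in the thresholds on level and ratio and serve as a second group of stressed cells without added mitochondria. Against them, unmodified mitochondria lowered 3 members and raised 0 (edgeR), where 1.41% and 2.14% of all genes were called. The replicate numbers paired these groups too, and with the block 9 members were called higher and 5 lower, where 4.19% and 3.14% of all genes were called in that fit. Unadjusted, 11 members were higher and 12 lower at p under 0.05 (22.3%, against 14.2% of all genes). The median log2 fold change was 0.045 over members and −0.004 over all genes, and was 0.010 without unmodified mitochondria replicate 1, 0.003 without its replicate 3 and −0.010 without MitoCoat–mRNA replicate 2. MitoCoat lowered 1 member and raised 1 against MitoCoat–mRNA (edgeR; background 1.42% and 1.57%), with a median log2 fold change of 0.113 over members and 0.00032 over all genes. Unadjusted, 14 members were higher and 8 lower at p under 0.05 (21.4%, against 14.8% of all genes). Of the 118 genes before the last condition, 4 were higher and 5 lower with unmodified mitochondria and 5 higher and 2 lower with MitoCoat. Values that did not overlap with MitoCoat–mRNA were found for 7 members above and 10 below with unmodified mitochondria (background 13.5% and 6.72%) and for 10 above and 7 below with MitoCoat (14.2% and 7.17%). The last condition removed genes with such values, and of the 118 genes before it 20 lay above and 12 below with unmodified mitochondria and 23 above and 9 below with MitoCoat. The higher medians with mitochondria seen against H2O2 were thus smaller against MitoCoat–mRNA, and single calls went in both directions.

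ENSRNOG00000010076 (chr13:52705174-52752997, minus strand, 14 exon blocks) was the clearest of the members that were lower with mitochondria. It had 3.36, 4.50 and 4.92 CPM in control, 16.3, 24.6 and 21.7 after H2O2 and 23.7, 27.4 and 25.4 with MitoCoat–mRNA. With unmodified mitochondria it had 16.3, 17 and 13.5 CPM, and MitoCoat gave 19.4, 16.7 and 14.7 CPM. All 6 of these lay under the MitoCoat–mRNA samples, but they overlapped the H2O2 samples because of H2O2 replicate 1. Against MitoCoat–mRNA the log2 fold change was −0.75 ± 0.116 (SE) with unmodified mitochondria (edgeR, adjusted p = 0.0060), a call that held without any 1 sample. With MitoCoat it was −0.64 ± 0.132 (SE; edgeR, adjusted p = 0.0296), which was lost without MitoCoat replicate 2 or 3 or MitoCoat–mRNA replicate 2 or 3 (adjusted p = 0.121, 0.0638, 0.167 and 0.0913). Against H2O2 it was −0.47 and −0.36 (adjusted p = 0.228 and 0.421), and the blocked fit gave 0.0362 for unmodified mitochondria. It kept 0.811 of the rise with unmodified mitochondria and 0.864 with MitoCoat, and so stayed far above control.

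ENSRNOG00000013916 (chr15:44855310-44860604, minus strand, 5 exon blocks) had 15, 22.3 and 19 CPM in control and 28.2, 52.3 and 43.6 after H2O2. It had 38.3, 51.5 and 41.6 CPM with MitoCoat–mRNA, 29.0, 32.6 and 27.8 with unmodified mitochondria and 29.9, 36.9 and 36.5 with MitoCoat. Both kinds of mitochondria lay below all MitoCoat–mRNA samples and inside the wide H2O2 range or just under it. Against H2O2, unmodified mitochondria gave a log2 fold change of −0.53 (edgeR, adjusted p = 0.258), and −0.48 with the replicate block (adjusted p = 0.0170). Unmodified mitochondria differed from MitoCoat–mRNA by −0.59 ± 0.123 on the log2 scale (SE; edgeR, adjusted p = 0.0273), and MitoCoat by −0.40 ± 0.132 (adjusted p = 0.172). The first call was lost without MitoCoat–mRNA replicate 2 (adjusted p = 0.110) or unmodified mitochondria replicate 1 (0.113) or 3 (0.0654), and in the fit on all 15 samples (0.144). With unmodified mitochondria 0.584 of the rise was kept.

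The third member lowered against MitoCoat–mRNA was chr3:120272583-120306551, among the 10 largest H2O2 ratios. It had 9.68 to 10.6 CPM in control, 42.2, 51.2 and 56.1 after H2O2, 66.2, 53.1 and 58.5 with MitoCoat–mRNA, and 47.8, 40.1 and 33.8 with unmodified mitochondria. With MitoCoat it had 49.7, 48.6 and 44.1 CPM, and all 6 samples with mitochondria lay below the MitoCoat–mRNA samples. The log2 fold change against MitoCoat–mRNA was −0.58 ± 0.135 (SE; edgeR, adjusted p = 0.0446), and 5 of the 6 fits without 1 sample lost the call, all but the one without unmodified mitochondria replicate 1 (adjusted p of 0.0703 to 0.145). MitoCoat differed from MitoCoat–mRNA by −0.37 (edgeR, adjusted p = 0.108), and unmodified mitochondria from H2O2 by −0.34 (adjusted p = 0.362). The member that was higher with MitoCoat than with MitoCoat–mRNA was ENSRNOG00000000239 (log2 fold change 0.84 ± 0.189 SE, edgeR, adjusted p = 0.0468). This call was lost in 5 of the 6 fits without 1 sample (adjusted p of 0.0565 to 0.162, all but that without MitoCoat–mRNA replicate 1) and on all 15 samples (0.107), as was that of ENSRNOG00000010076 with MitoCoat on all 15 samples (0.059).

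**Figure D4:**
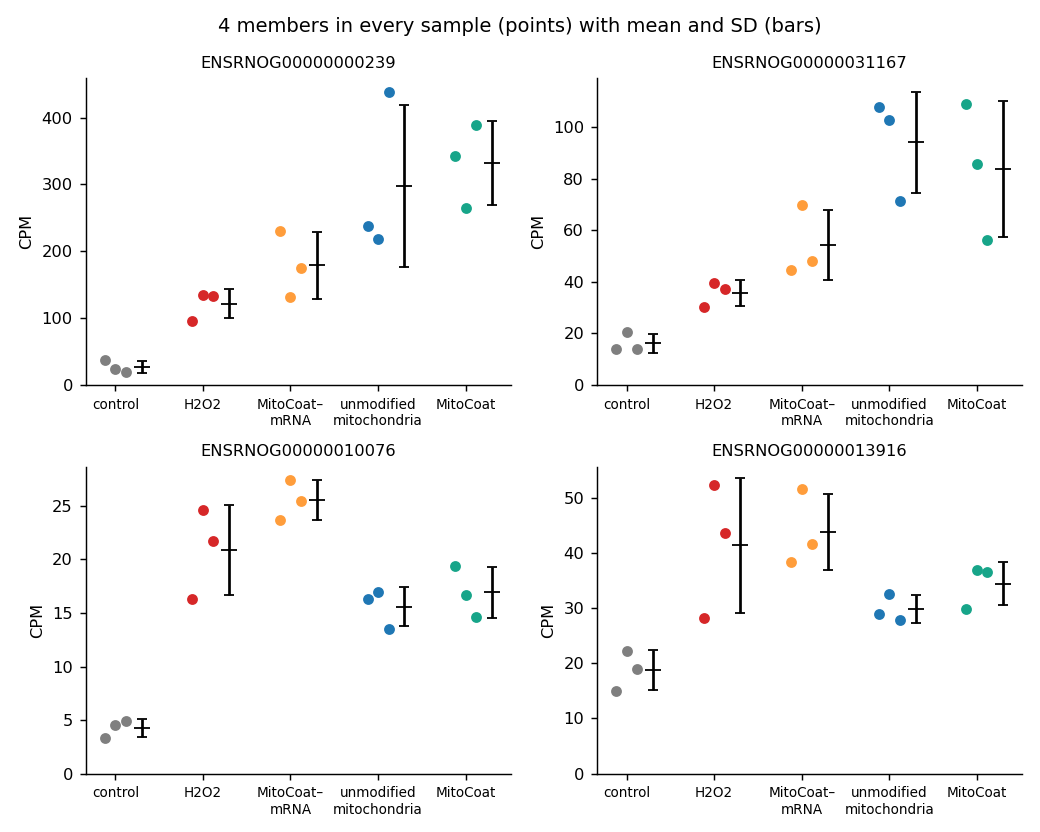
CPM of 4 members in every sample (points, replicates 1 to 3 from left) with the mean and SD of each group (bars, n = 3). In the upper row the 6 samples with mitochondria lie above the H2O2 samples, and in the lower row they lie below the MitoCoat–mRNA samples but well above or, for ENSRNOG00000013916, above the control samples.

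MitoCoat against unmodified mitochondria was the comparison least tied to the choice of members, since the rule never set these groups against each other. Of the 103 members, 0 were called in either direction (edgeR, smallest adjusted p = 0.889), as were 0% of the 15731 genes tested, and DESeq2 called 0 members. Unadjusted, 2 members had a p under 0.05 (1.94%, against 4.95% of all genes). These were chr14:6581983-6587141, with a log2 fold change of 0.43 (95% interval 0.143 to 0.708), and chr5:76110738-76129441, with 0.27 (0.074 to 0.466). The median log2 fold change was 0.050 over members and −0.002 over all genes, with 64 members on the positive side. This median was 0.102 without MitoCoat replicate 1 and 0.078 without unmodified mitochondria replicate 3. The 95% interval stayed within a 2-fold change in both directions for 88 of the 103 members, where 78.2% of all genes had such an interval, and within a 1.5-fold change for 46. For ENSRNOG00000000239 the difference was 0.15 (95% interval −0.373 to 0.669) and for ENSRNOG00000010076 0.11 (−0.214 to 0.441). MitoCoat values without overlap with unmodified mitochondria were found for 5 members above and 1 below, 4.85% and 0.971%, where 6.48% and 4.76% of all genes had them.

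**Figure D5:**
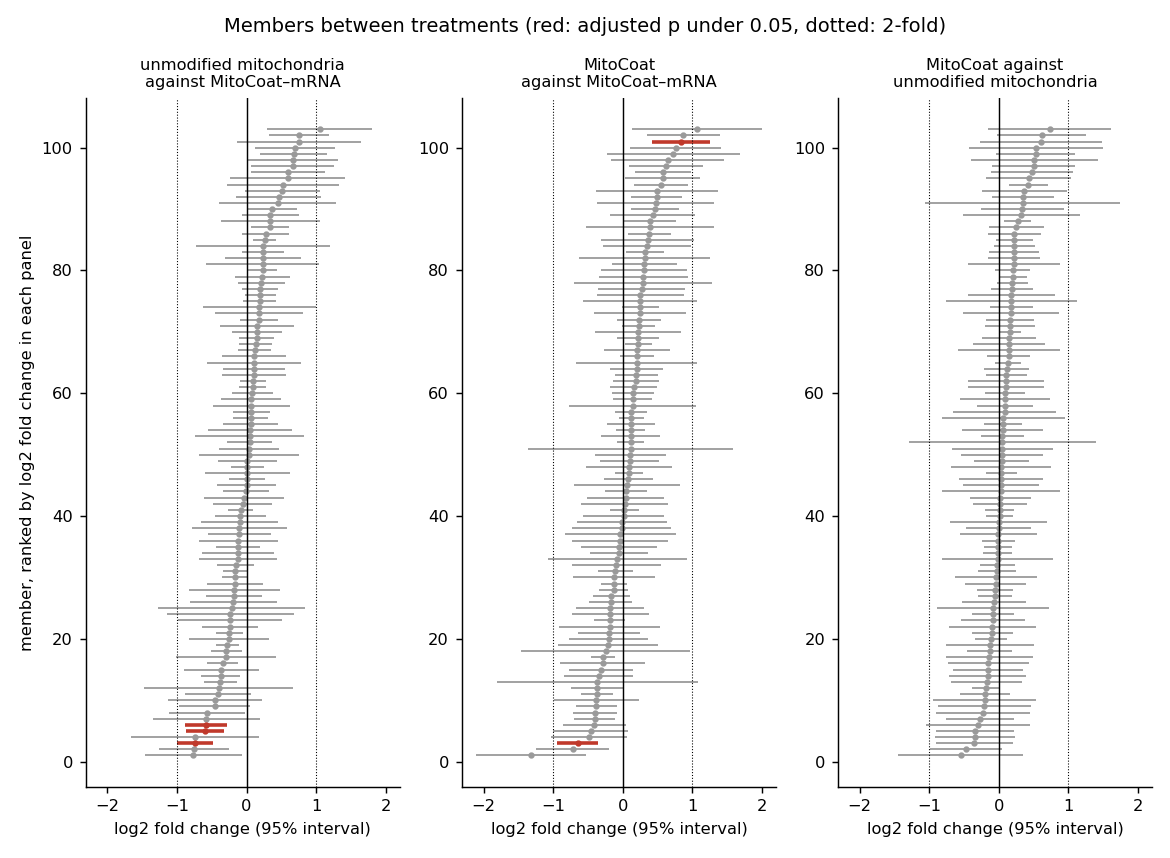
Log2 fold change with its 95% interval for each of the 103 members, ranked within each panel, for the 3 comparisons between treatments; red marks an adjusted p under 0.05 and dotted lines mark a 2-fold change. 3 members are called in the left panel, 2 in the middle panel and 0 in the right panel, where 88 intervals lie inside the dotted lines.

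The 15 genes that the last condition left out took a more extreme course by construction, and their values are given once as a description. The largest distance above was that of chr1:127301128-127337882, whose log2 ratio to control was 1.03 after H2O2, 1.69 with MitoCoat–mRNA, 3.56 with unmodified mitochondria and 3.39 with MitoCoat. It was followed by chr8:130416355-130421871, with ratios of 1.67, 1.91, 2.98 and 2.95 in the same order, and by chr20:7136007-7138980, with 1.16, 1.65, 2.30 and 2.35. Both genes below came close to the control level. The ratio of chr4:96562725-96564611 was 1.14 after H2O2, 1.05 with MitoCoat–mRNA, −0.04 with unmodified mitochondria and 0.19 with MitoCoat, and that of chr3:124129558-124145566 was 1.00, 1.00, 0.18 and 0.23.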

How the data were processed

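RNA-seq covered 5 groups of rat cortical astrocytes with 3 samples each. Trimming by Trimmomatic, alignment to Rnor6.0 (Ensembl annotation) by STAR and counting of uniquely mapped exonic reads by featureCounts (Subread 1.5.2) were done by the authors. The raw counts per gene that resulted were deposited without normalization. 1 further file held the same values as the file of unmodified mitochondria replicate 2 and was not used.

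From the counts, CPM values were computed on the total counts of each library, and the rule for members was applied to them. The members and lists were chosen with earlier results of these data known. Pairs of groups were compared with edgeR 4.0.16 in R 4.3.3 (filterByExpr, TMM, quasi-likelihood F test, two-sided, 6 samples per fit). A gene was called at an adjusted p under 0.05 (Benjamini-Hochberg over all genes tested), and 95% intervals were taken from the same fits. The scripts were tested on simulated data with 200 altered genes. Python 3.11.15 with matplotlib 3.10.9 drew the figures.

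The study used the Wald test of DESeq2, which was run here as an alternative (DESeq2 1.42.0). Further alternatives were RLE size factors, a fit on all 15 samples, minimum counts of 1 in total or 10 in each sample, the replicate number as a block and the removal of single samples. For the rule they were TMM library sizes, an offset of 1 CPM, a minimum of 2 CPM, and the last condition not applied. Leaving out H2O2 or control samples for the share of the rise kept was added after seeing the data. The replicate numbers come from the labels, which do not say what they share. Deviations from the group means over 15072 genes correlated in every same-numbered pair at 0.347 to 0.418 between unmodified mitochondria and H2O2, 0.159 to 0.571 between MitoCoat–mRNA and H2O2, 0.297 to 0.440 between unmodified mitochondria and MitoCoat–mRNA, and 0.253 to 0.371 between MitoCoat and unmodified mitochondria. These groups were taken as paired by the rule that every pair exceed 0.1. The main fits left this pairing out, and the calls that chose named genes came from them. No 2 samples of a group were copies of each other.

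The rule for named genes took the 10 members with the largest ratio, the 5 with the most reads, those called against MitoCoat–mRNA, those nearest the threshold and the largest of those left out. Members called against H2O2, neighbouring pairs, members that kept little of the rise and those with an unadjusted p under 0.05 between MitoCoat and unmodified mitochondria were chosen after their values were seen. The files' 32552 identifiers had 0 matches in the gene table used here, so gene lists by pathway, cell type markers and promoter motifs were not analysed here.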

Additional observations from a re-analysis of the deposited data

How the results depend on the processing

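Medians of log2 fold changes, shares of the rise kept and the number of members moved by less than the spread between replicates, or within 1.5 times, under each alternative run. This spread was close to some of the medians, so staying within it says little. It was 0.142 against a median of 0.134 for MitoCoat–mRNA against H2O2. For unmodified mitochondria against H2O2 it was 0.13 against 0.158. The member number was 111 with TMM library sizes (103 shared), 79 with an offset of 1 CPM, 89 with a minimum of 2 CPM, 118 with the last condition not applied, and 95 to 121 without 1 sample (85 to 98 shared). The median log2 fold change ranged without 1 sample from 0.0609 to 0.197 (unmodified mitochondria against H2O2), 0.143 to 0.277 (MitoCoat against H2O2), 0.0513 to 0.194 (MitoCoat–mRNA against H2O2), −0.01 to 0.0507 (unmodified mitochondria against MitoCoat–mRNA), 0.0782 to 0.141 (MitoCoat against MitoCoat–mRNA) and 0.053 to 0.102 (MitoCoat against unmodified mitochondria). The median share kept ranged from 1.08 to 1.15 with unmodified mitochondria, 1.13 to 1.22 with MitoCoat and 1.05 to 1.13 with MitoCoat–mRNA.

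Counts of called members, given as higher and lower, were small and less stable. For unmodified mitochondria against H2O2 (3 and 0) they were 8 and 1 by DESeq2 (3.07% and 2.88% of all genes), 5 and 0 on all 15 samples (2.75% and 2.19%), and 8 and 0 with a minimum of 1 count in total (1.82% and 1.45%). For MitoCoat against H2O2 (4 and 0) they were 10 and 0 by DESeq2 (2.77% and 3.39%) and 8 and 0 with a minimum of 1 count in total (1.36% and 1.55%). For unmodified mitochondria against MitoCoat–mRNA (0 and 3) DESeq2 gave 2 and 4 (3.24% and 2.6%) and the minimum of 1 count gave 3 and 3 (1.99% and 1.34%). For MitoCoat against MitoCoat–mRNA (1 and 1) DESeq2 gave 3 and 4 (2.72% and 2.91%), the fit on all 15 samples 0 and 0 (2.21% and 1.81%), and the minimum of 1 count 3 and 2 (1.45% and 1.53%). The minimum of 1 count tests more genes, and the cause of these shifts was not tested.

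With replicate number as a block, call counts were 13 and 4 for unmodified mitochondria against H2O2 (4.12% and 3.84% of all genes), 13 and 0 for MitoCoat against H2O2 (2.51% and 3.37%), 9 and 5 for unmodified mitochondria against MitoCoat–mRNA (4.19% and 3.14%) and 5 and 0 for MitoCoat against MitoCoat–mRNA (1.32% and 1.21%). The pairs of MitoCoat with H2O2 (correlations of 0.0285 to 0.446) and with MitoCoat–mRNA (0.0344 to 0.193) share only a number by the rule used. The block changed no other call count, and those of MitoCoat–mRNA against H2O2 and of MitoCoat against unmodified mitochondria remained at 0 in every fit run.

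The counts without 1 sample are given without the share of all genes called in the same fits, and nothing about the members is read from them. Without 1 sample, unmodified mitochondria against H2O2 gave 1 to 3 higher and 0 to 1 lower members (1 higher without H2O2 replicate 3, 1 lower without H2O2 replicate 1). MitoCoat against H2O2 gave 1 to 6 higher (1 without MitoCoat replicate 1 or H2O2 replicate 1, 2 without MitoCoat replicate 2 or H2O2 replicate 3) and 0 lower. Unmodified mitochondria against MitoCoat–mRNA gave 0 to 1 higher and 1 to 3 lower (1 and 1 without unmodified mitochondria replicate 3 or MitoCoat–mRNA replicate 2). MitoCoat against MitoCoat–mRNA gave 0 to 1 higher (0 without MitoCoat replicate 1 or 2 or MitoCoat–mRNA replicate 2 or 3) and 0 to 4 lower (4 without MitoCoat replicate 1, 0 without MitoCoat replicate 2 or 3 or MitoCoat–mRNA replicate 2 or 3). The lowest H2O2 count had a median of 252 reads over members and was 82 or less for 25% of them, and the part of depth in the number of calls was not tested.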
